A study of Mus musculus with 3 samples.

Results

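The tripartite motif (TRIM) family was followed in macrophages sorted from mouse kidney. Members were the rows whose gene symbol is Trim followed by a number and an optional letter, which gave 36 of the 14811 listed genes. The samples were 3 RNA-seq libraries, 1 per animal, from C57BL6/J mice that had received phosphate-buffered saline (PBS) intravenously and whose kidneys were taken 1 h later. They form a single group: the labels name no genotype change, no transgene, no age and no second treatment, so all values below are levels in PBS-injected animals and differences between genes of the same library.

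TRIM proteins carry a RING finger, B-box zinc fingers and a coiled coil, followed by a C-terminal domain that sets what the protein binds. The RING finger passes ubiquitin from an E2 enzyme to a target, and ubiquitin chains either mark the target for the proteasome or assemble signalling complexes. In myeloid cells the family is best known for antiviral defence: Trim25 ubiquitinates the RNA sensor RIG-I, Trim21 binds antibody-coated particles in the cytosol, and Trim30a restrains signalling from Toll-like receptors. Not every member is a classical ligase, since Trim14 and Trim44 lack a RING finger, so the family name holds for its fold more than for one enzyme activity.

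The libraries held 50646558 to 56718534 reads over the listed genes. Levels are read counts scaled by the authors' size factors, with the deposited constant of 1 subtracted, called normalised reads here. On this scale 1 read equals 0.806 in mouse 1, 0.555 in mouse 2 and 0.705 in mouse 3. The limit that a count of 0 sets (3 reads) is then 2.42, 1.66 and 2.11, which covers counting error only, as PCR copies are not independent molecules. Of the 11 macrophage markers examined, 10 were at 1000 normalised reads or more in every mouse, so the sorted cells carried the transcripts of their label. The exception was the integrin gene Itgam, at 1021, 445.7 and 5.64. Markers of kidney tubule were present as well and unevenly so: the 8 genes summed to 4348, 19563 and 2054 in mice 1, 2 and 3, none of them at 0 in every mouse. The 5 endothelial markers summed to 545, 135 and 1391, the 3 podocyte markers to 35.5, 257.5 and 415, and the 3 fibroblast markers to 44.4, 63.3 and 28.2. Of the lymphocyte markers at hand Cd3e was at 0 and Cd79b at 227, 3940 and 6359, the neutrophil marker S100a9 was at 0 in every mouse, and the 3 erythroid markers summed to 5.65, 0 and 413. The part of these other cells in the TRIM values was not tested, and in a bulk sample a change in the number of cells of a type cannot be told apart from a change in RNA per cell.

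Most of the 36 listed members had reads in every mouse, and they covered a very wide range of levels. Family genes that are not listed, such as Trim34b and Trim30c on chromosome 7, could not be counted. Shares of the family below therefore refer to the 36 members. Of the 36 members, 32 were above 0 in every mouse, against 71% of all listed genes. Of the members, 21 reached 10 normalised reads in every mouse, against 44.4% of listed genes, and 9 reached 1000, against 14.7%. The members at 1000 or more in every mouse were Trim30a, Trim30d, Trim12a, Trim5, Trim25, Trim23, Trim21, Trim12c and Trim41. Trim6 and Trim67 were at 0 in every mouse, which is 5.56% of members and close to the 6.59% of listed genes. All members together took 0.214%, 0.157% and 0.230% of the reads in mice 1, 2 and 3.

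A single gene, Trim30a, took 39.0% ± 4.44 (SD, n = 3) of the reads of all 36 members. Trim30a and its neighbours on chromosome 7 (Trim6, Trim34a, Trim5, Trim12a, Trim12c, Trim30b, Trim30a and Trim30d, in this order along the chromosome in RefSeq) took 78.4%, 68.0% and 62.4% of the family's reads in mice 1, 2 and 3, and 73.2% ± 7.04 when each gene was divided by its exon length. The remaining 28 members shared the other 30.4% ± 8.16 of the reads.

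**Figure D1:**
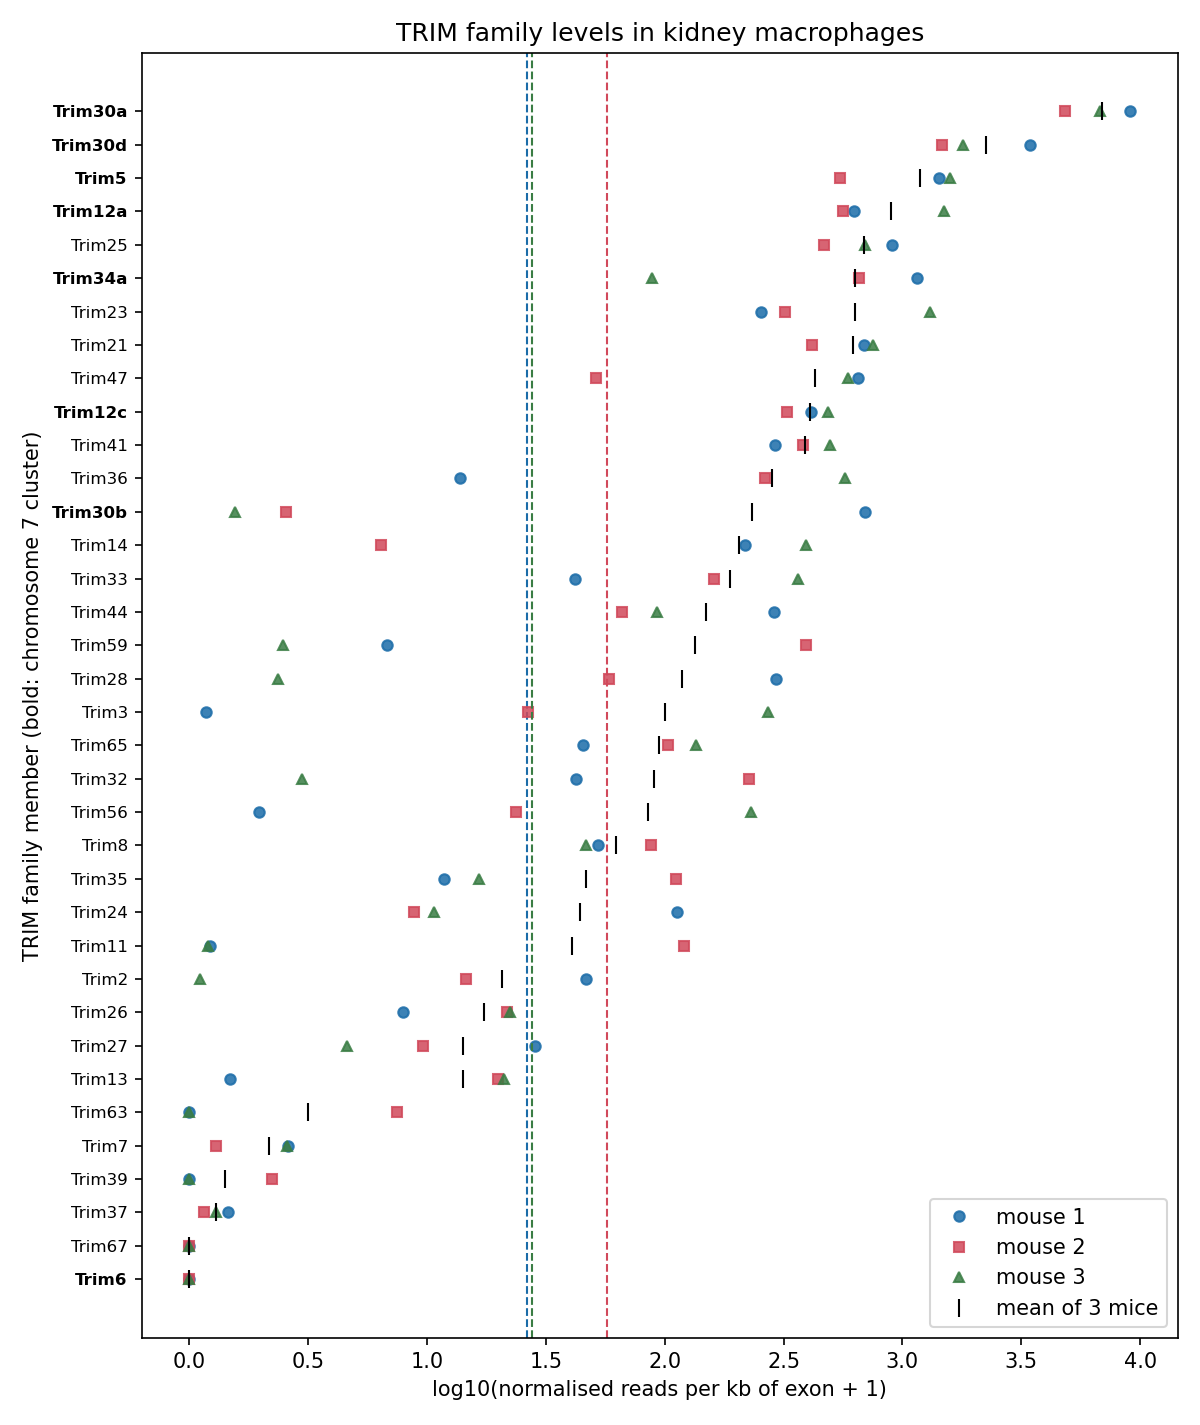
Levels of the 36 members in the 3 mice, on the log10(normalised reads per kb of exon + 1) scale. Points are mice, black ticks the means, dashed lines the median gene of each library in the same colours, and bold names the chromosome 7 cluster. Trim30a and Trim30d lie at the top in all 3 mice, while members of the middle of the order are spread widely between mice.

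To compare genes of different length, values were divided by kb of exon, and each gene was set against the median gene of its own library, at 25.3, 56.2 and 26.6 normalised reads per kb in mice 1, 2 and 3. The fit ran over all 13792 genes that were above 0 in any library and had a known exon length. Of the 34 members tested, 11 were called above the median gene (24.7% of all genes were) and 4 below it (21.7% of all genes were), at an adjusted p under 0.05 in limma with Benjamini-Hochberg adjustment over all genes. The members' median log2 difference from the median gene was 0.39, where the median over all genes tested was -0.34. The 11 higher members were Trim30a, Trim30d, Trim5, Trim12a, Trim25, Trim21, Trim23, Trim34a, Trim12c, Trim41 and Trim47. The 4 lower ones were Trim7, Trim63, Trim39 and Trim37. Without mouse 3 only 7 members were called above. Markers of other cells passed the same call in the fit of all mice. Of 8 kidney tubule markers, 1 was above (Slc34a1, log2 difference 4.04) and 2 were below. Of 2 tested lymphocyte markers, 1 was above (Cd79b, 5.17) and 1 below. A call above the median gene therefore does not show which cells the reads came from.

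**Figure D2:**
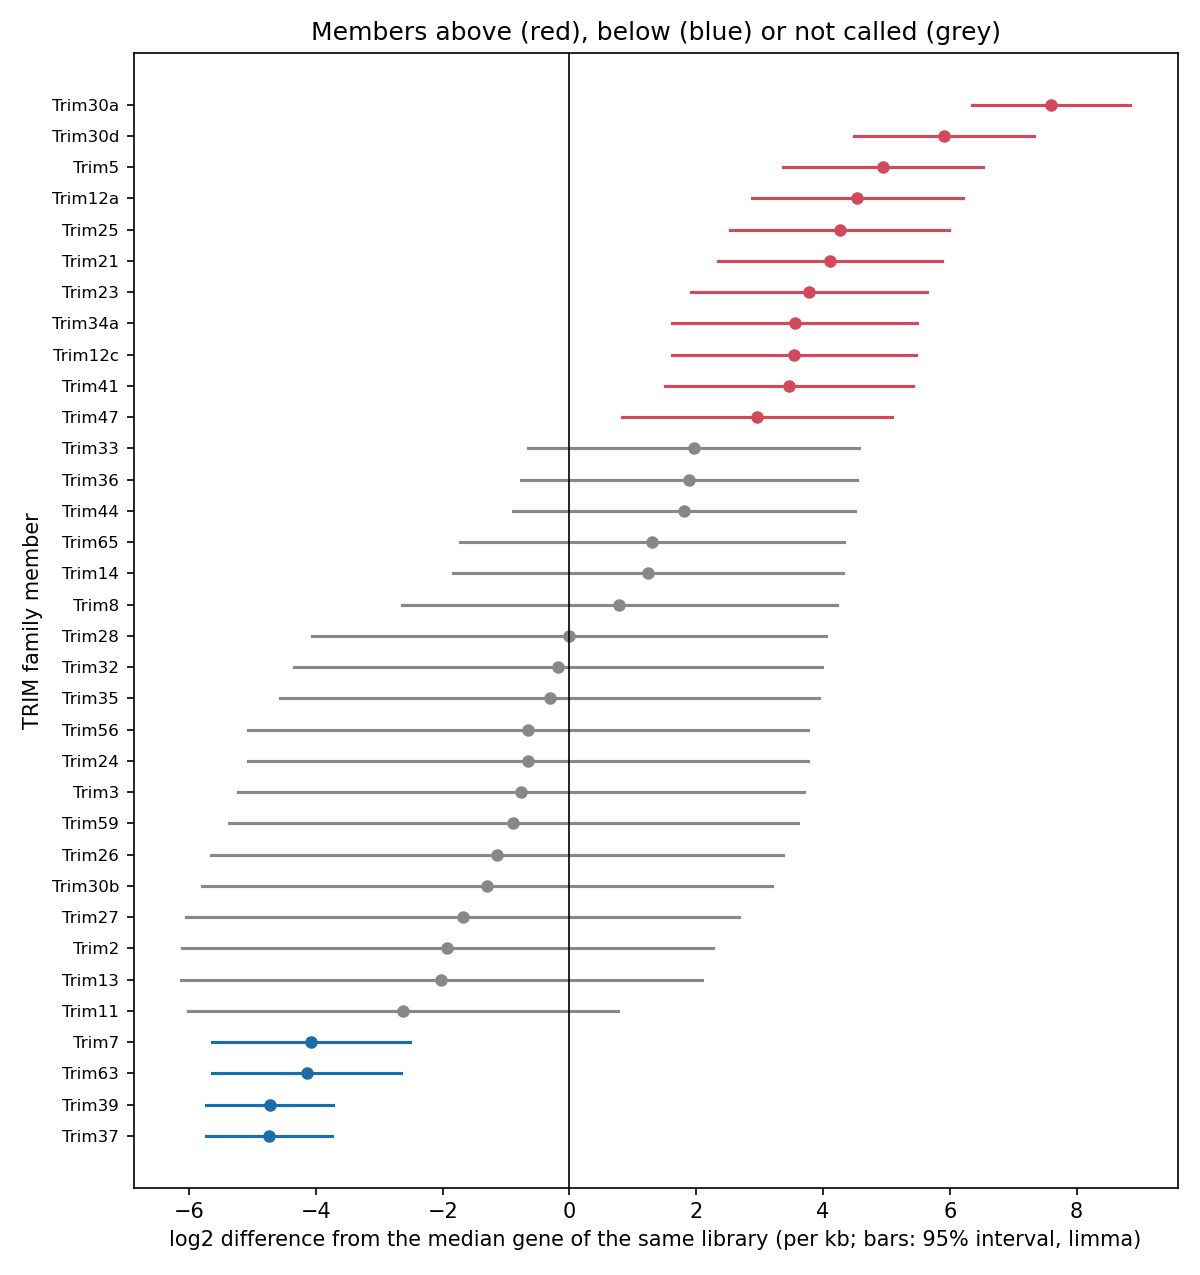
Log2 difference (per kb) of the 34 tested members from the median gene of the same library, with 95% intervals from limma. Red members are above, blue ones below, and grey ones are not called. The difference runs from -4.74 for Trim37 to 7.59 for Trim30a.

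The chromosome 7 cluster holds genes related to primate TRIM5, a restriction factor of retroviral capsids. Trim30a, which promotes breakdown of the adaptors TAB2 and TAB3 downstream of Toll-like receptors, was at 37448, 19949 and 27959 normalised reads in mice 1, 2 and 3 (28452 ± 8759.5, SD). It was high in every mouse, 7.59 ± 0.64 (SE) log2 units above the median gene per kb (adjusted p = 4.27e-31, limma, 3 of 3 mice). That p-value rests on the variance of other genes at that level, not on the spread of these 3 mice. Without an intensity trend in the variance the adjusted p was 0.0127 (limma).

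Trim30d, its closest neighbour, was at 12980.1, 5494 and 6749 normalised reads. It lay 5.91 ± 0.73 (SE) log2 units above the median gene per kb (adjusted p = 3.32e-15, limma, 3 of 3 mice). Without the trend the adjusted p was 0.0155 (limma). The lowest of the 3 mice for Trim30a, at 4853 normalised reads per kb, was still above the highest for Trim30d, at 3454, so the ranges did not overlap.

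Trim5 was at 5262, 2008.5 and 5868 normalised reads, and Trim12a at 3601, 3238 and 8671. Mouse 2 was the lowest for both genes, and mouse 3 the highest. Trim12c had the narrowest span of the detected cluster members, at 1541, 1213 and 1816. Trim34a was low in 1 animal, with 2980 and 1700 in mice 1 and 2 and 227 in mouse 3. All 4 were called above the median gene per kb (limma over all genes), with log2 differences of 4.95 for Trim5, 4.54 for Trim12a, 3.54 for Trim12c and 3.55 for Trim34a. With mouse 3 left out, Trim12c no longer passed (log2 difference 3.06, adjusted p = 0.0710, limma), nor did Trim34a with mouse 1 left out (2.43, adjusted p = 0.173, limma).

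Trim30b, another Trim30 copy, was high in 1 animal only. It was at 5229 normalised reads in mouse 1 but at 11.7 and 4.23 in mice 2 and 3. In mouse 1 it was in the range of Trim5. It had 21 reads in mouse 2 and 6 in mouse 3, where it was close to the floor of 3 reads. Trim30b could not be separated from the median gene (log2 difference -1.30, 95% interval -5.81 to 3.20, limma). In the RefSeq annotation Trim30b lies inside the span of another gene, Gm38525. In GENCODE M21, 0% of its exon bases lie under exons of another gene on either strand. Whether reads of Gm38525 entered its values was not tested. Trim6, at the other end of the cluster, was at 0 in all 3 mice.

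Within each library, all 6 cluster members that could be set against Trim30a were below it per kb, in 3 of 3 mice each. All 6 were called (limma over all genes), where 97.2% of all genes tested were called below Trim30a. The log2 differences were -1.68 ± 0.41 (SE) for Trim30d (adjusted p = 0.000877, limma) and -2.64 ± 0.50 for Trim5 (adjusted p = 0.000103, limma). They were -3.05 for Trim12a, -4.04 for Trim34a, -4.06 for Trim12c and -8.90 for Trim30b. The Trim30d call did not hold without an intensity trend in the variance (log2 difference -1.68, adjusted p = 0.0642, limma).

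**Figure D3:**
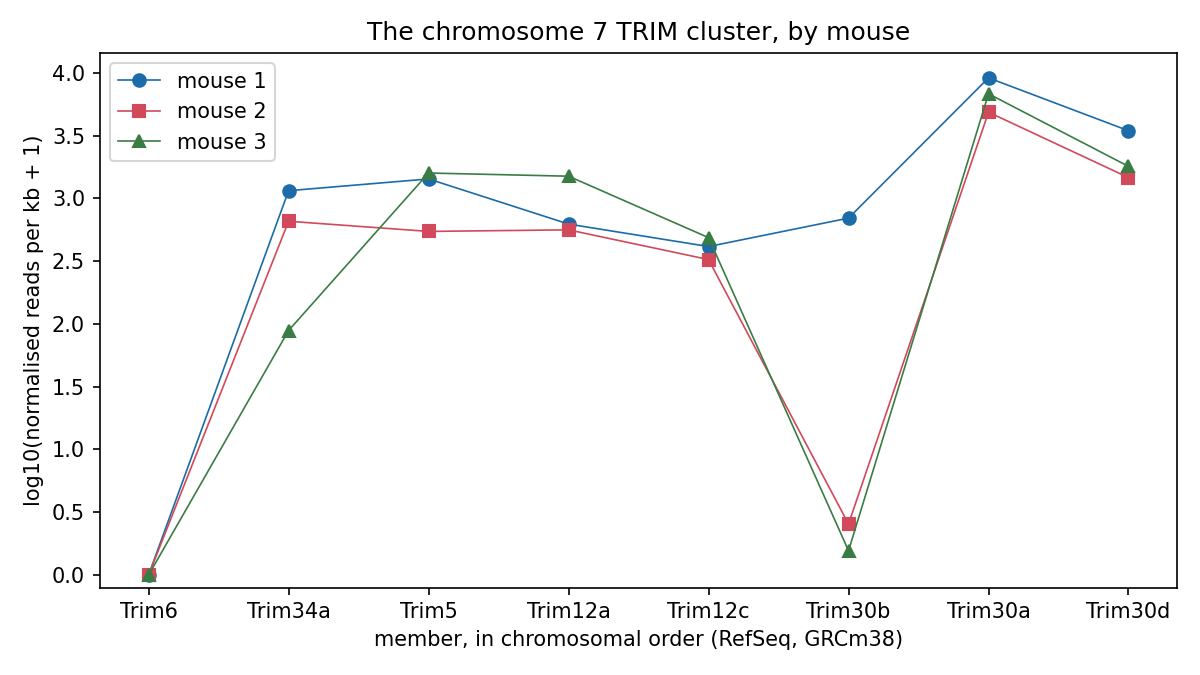
The 8 listed genes of the chromosome 7 cluster in chromosomal order, on the log10(normalised reads per kb of exon + 1) scale, 1 line per mouse (lines only join the points of a mouse). Trim30a is highest in all 3 mice, Trim6 is at 0, and Trim30b is high in mouse 1 only.

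The cluster genes share sequence as well as position, which limits how far single values can be read. Of the 50-base words in Trim34a transcripts, 39.8% also occur in Trim34b, a gene not analysed here. Trim5 shared 36.3% of its words with other genes, mainly Trim12c, and Trim12c 33.0%, mainly with Trim5. Trim12a shared 10.4%. Trim30a and Trim30d were far more distinct, with 5.98% of Trim30a words found in Trim30d and no other gene, and Trim30b shared 0.550%. It is unknown how reads that fit several genes were counted, so the split among Trim5, Trim12a and Trim12c is uncertain. The value of Trim34a is uncertain as well, but its shared words occur in Trim34b only, not in Trim5, Trim12a or Trim12c.

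The promoters of these genes were compared because the highest members lie side by side. The interferon-stimulated response element (ISRE) is a site bound by interferon regulatory factors. Its core was searched as GAAANNGAAA on both strands, in RefSeq windows of 250 bases before to 50 after each gene start on GRCm38.p6. Windows were at hand for 28 of the 36 members. A match was found in 9 of these 28 genes (32.1%), against 3.99% of the 27025 genes with a window. Of the 11 members called above the median gene, 7 had a match, namely Trim30a, Trim30d, Trim5, Trim12a, Trim12c, Trim34a and Trim21, and Trim23, Trim25, Trim41 and Trim47 had none. Of the 17 other members with a window, only Trim2 and Trim26 had one. The chromosome 7 cluster alone held 6 of the genes with a match. These neighbours share sequence, so they are not independent cases in the shares above. Outside the cluster, Trim21 was the only called member with a match. Whether the match goes with level was not tested. Overlapping matches occur in Trim21 and Trim26, which have 2 each. The gamma-activated site core, TTCNNNGAA, which reads the same on both strands, occurred in no member window and in 9.55% of all genes. These are letter matches in a window, and nothing here shows that a factor bound them.

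The stretches around the match are shown for the cluster and for Trim21, 15 bases to either side, read on the gene's strand, with the matched core in capitals. They lie at chr7:104465205-104465244 (Trim30a, minus strand), chr7:104507866-104507905 (Trim30d, minus), chr7:104288131-104288170 (Trim5, minus), chr7:104315461-104315500 (Trim12a, minus), chr7:104353354-104353393 (Trim12c, minus), chr7:104244452-104244491 (Trim34a, plus) and chr7:102565439-102565484 (Trim21, minus), all RefSeq GRCm38.p6.
Trim30a: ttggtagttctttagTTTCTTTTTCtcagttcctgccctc
Trim30d: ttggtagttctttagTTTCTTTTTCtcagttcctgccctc
Trim5: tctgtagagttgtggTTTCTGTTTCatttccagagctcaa
Trim12a: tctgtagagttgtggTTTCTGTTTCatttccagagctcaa
Trim12c: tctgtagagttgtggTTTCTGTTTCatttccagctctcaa
Trim34a: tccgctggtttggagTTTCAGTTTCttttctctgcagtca
Trim21: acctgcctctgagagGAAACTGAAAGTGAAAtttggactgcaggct
The stretches of Trim30a and Trim30d are identical over all 40 bases, as are those of Trim5 and Trim12a, while Trim12c differs from Trim5 at 2 positions. Trim30a has another annotated start, whose stretch at chr7:104446099-104446138 holds the same core and differs from the one shown at 7 positions. Between the Trim30 pair and the Trim5 pair 20 of the 40 positions differ. The windows of Trim30b and Trim6, also of the cluster, held no match, and a link between match and level was not tested.

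Outside the cluster, Trim25, Trim23 and Trim21 had the highest mean levels. Trim25, which attaches ubiquitin chains to RIG-I, was at 5214, 2676 and 3998 normalised reads, 4.26 ± 0.88 (SE) log2 units above the median gene per kb (adjusted p = 5.45e-06, limma, 3 of 3 mice). Trim21, the cytosolic receptor for the constant part of antibodies, was at 2562, 1538 and 2797, which was 4.11 ± 0.90 (SE) log2 units above (adjusted p = 1.88e-05, limma, 3 of 3 mice). Both genes were present at similar levels in every mouse, with spans of 1.95-fold and 1.82-fold between the highest and the lowest animal. Per kb, Trim21 did not differ from Trim25 beyond the error (log2 difference -0.15, 95% interval -1.40 to 1.11, adjusted p = 0.825, limma).

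Trim23, which joins a RING finger to a GTPase domain of the ARF type, was at 1448, 1846 and 7531 normalised reads. Mouse 3 stood well above both others. It was called above the median gene (log2 difference 3.78, adjusted p = 0.000227, limma, 3 of 3 mice), but not with mouse 3 left out (2.70, adjusted p = 0.1495, limma). Trim41 was at 1018, 1336 and 1737, a narrow span (log2 difference 3.46, adjusted p = 0.00158, limma, 3 of 3 mice). It too was not called with mouse 3 left out (2.92, adjusted p = 0.0960, limma). Trim47 was at 1772, 138 and 1606, so mouse 2 was low. It was above the median gene in 2 of 3 mice only (log2 difference 2.96, adjusted p = 0.0159, limma), and was no longer called without mouse 1 (log2 difference 1.96, adjusted p = 0.376, limma) or mouse 3 (log2 difference 2.05, adjusted p = 0.386, limma).

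A further 4 members have roles in sensing of nucleic acids. Trim65, a ligase for the RNA sensor MDA5, was at 260, 600 and 790 normalised reads, and Trim14, an adaptor at the mitochondrial protein MAVS without a RING finger, at 942, 23.3 and 1695. Trim56, linked to DNA sensing through cGAS and STING, was at 8.87, 211 and 2128, and the NHL-repeat gene Trim32, which also acts on STING, at 134, 727 and 6.34. Trim65 was the only one of these 4 within 4-fold across the mice. Trim56 was highest in mouse 3 and Trim32 in mouse 2.

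Trim26 and Trim27, ligases that act on signalling to interferon genes, reached at most 151 normalised reads in any mouse. Trim26 was at 47.6, 142.6 and 146.6 normalised reads and Trim27 at 151, 47.2 and 19.7. Of the 8 members set against Trim25 per kb, 6 were lower in 3 of 3 mice, all except Trim21 and Trim23. Only Trim27 was called (log2 difference -5.95 ± 2.29 SE, adjusted p = 0.0387, limma), where 38.4% of all genes were called below Trim25. With mouse 1, 2 or 3 left out, the log2 difference of Trim27 stayed at -6.42, -6.12 and -5.30, but it was not called (adjusted p = 0.0815, 0.205 and 0.188, limma). The other 5 had adjusted p-values of 0.0598 to 0.0655 in limma, with log2 differences from -5.41 for Trim26 to -2.96 for Trim65, and their unadjusted p was under 0.05. For Trim23 the log2 difference from Trim25 was -0.49 (95% interval -1.93 to 0.96, limma), and 0.19 without mouse 1.

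The chromatin cofactors Trim24, Trim28 and Trim33 pair the TRIM fold with a PHD finger and a bromodomain. Trim28 (KAP1) is the corepressor of KRAB zinc finger proteins and silences endogenous retroviruses, Trim24 binds nuclear receptors, and Trim33 works with Smad4. Trim33 was at 400.0, 1568 and 3559 normalised reads, and it was above the median gene in every mouse but was not called (log2 difference 1.96, adjusted p = 0.242, limma).

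Trim28 was at 1213, 239 and 5.64 normalised reads and Trim24 at 954, 66.6 and 82.5. Trim28 was near the floor in mouse 3, where Trim33 was at its highest, and mouse 1 was the highest for both Trim28 and Trim24. Neither Trim28 (log2 difference 0.64, 95% interval -4.03 to 5.32, limma) nor Trim33 (2.62, 95% interval -1.03 to 6.26, limma) was separated from Trim24 per kb, with 0 of 2 also at an unadjusted p under 0.05, while 24% of all genes were called above or below Trim24. Without mouse 1, Trim33 was called above Trim24 (log2 difference 4.64, adjusted p = 2.14e-06, limma, higher in both mice left).

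The NHL-repeat members Trim2, Trim3 and Trim32 end in a propeller that binds RNA or protein partners. Trim3 was at 0.806, 117 and 1238 normalised reads, and Trim2 at 899, 269 and 2.11. The value of Trim3 in mouse 1 is a single read, and the order of the mice was opposite for the 2 genes. Neither Trim3 nor Trim32 differed from Trim2 beyond the error (log2 differences 1.16 and 1.75, limma), with 0 of 2 at an unadjusted p under 0.05 and 17% of all genes called above or below Trim2.

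The membrane-anchored members are Trim13, of the endoplasmic reticulum, and Trim59. Trim59 was at 19.4, 1320 and 4.93 normalised reads, high in mouse 2 only, and Trim13 at 0.806, 31.1 and 33.1. Their difference was within the error (log2 difference 1.14, 95% interval -3.22 to 5.49, limma), with 0 of 1 at an unadjusted p under 0.05 and 24.3% of all genes called above or below Trim13. Trim36, a microtubule-binding member, was at 62.9, 1301 and 2812. It was above the median gene in mice 2 and 3 but not in mouse 1.

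The remaining members were present at intermediate or low levels. Trim44, without a RING finger, was at 1628, 366 and 517 normalised reads, and Trim8, a modulator of cytokine signalling, was even across mice at 191, 321 and 168. Trim35 was at 508 in mouse 2 and at 71.9 or less in the others, and Trim11 at 0.806, 427 and 0.705, which is 769 reads in mouse 2 and 1 read in each of the others. Trim7 stayed between 2.22 and 12.1. Trim63 (MuRF1), known from muscle wasting, had 33 reads in mouse 2 and none in the others, and Trim39 had 16 reads in mouse 2 alone. Trim37 had 4, 2 and 3 reads in mice 1, 2 and 3. Trim67, a neuronal member, was at 0 in all libraries. Reads of overlapping genes could enter some values: 38.0% of the exon bases of Trim14 lie under exons of the opposite strand, among them Nans, as do 23.5% of those of Trim34a, and whether counting used strand is not given in the sources used here. On the same strand, Trim47 and Trim65 overlap each other over 8.23% and 3.82% of their exon bases. Of the 50-base words of Trim13, 14.2% also occur in Gm9359.

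Members ranged from even to very uneven between animals, and so did other genes of their level. Among the 28 members with a mean of 100 normalised reads or more, 13 differed by over 10-fold between the highest and the lowest mouse on the log2(value + 1) scale (46.4%), against 54.7% of all genes at that level. With a mean of 1000 or more it was 4 of 14 members (28.6%), against 33.3% of genes, and from 100 to 1000 it was 9 of 14 (64.3%), against 76.1%. The family was therefore close to other genes of its level. The 5 widest were Trim30b, Trim3, Trim2, Trim11 and Trim59, with log2 ranges of 9.97, 9.42, 8.18, 7.97 and 7.80. Of the 36 members, 8 were under 10 in 1 mouse and at 100 or more in another (22.2%), against 25.5% of listed genes, and none was at exactly 0 in 1 mouse and at 100 or more in another, against 5.87%.

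**Figure D4:**
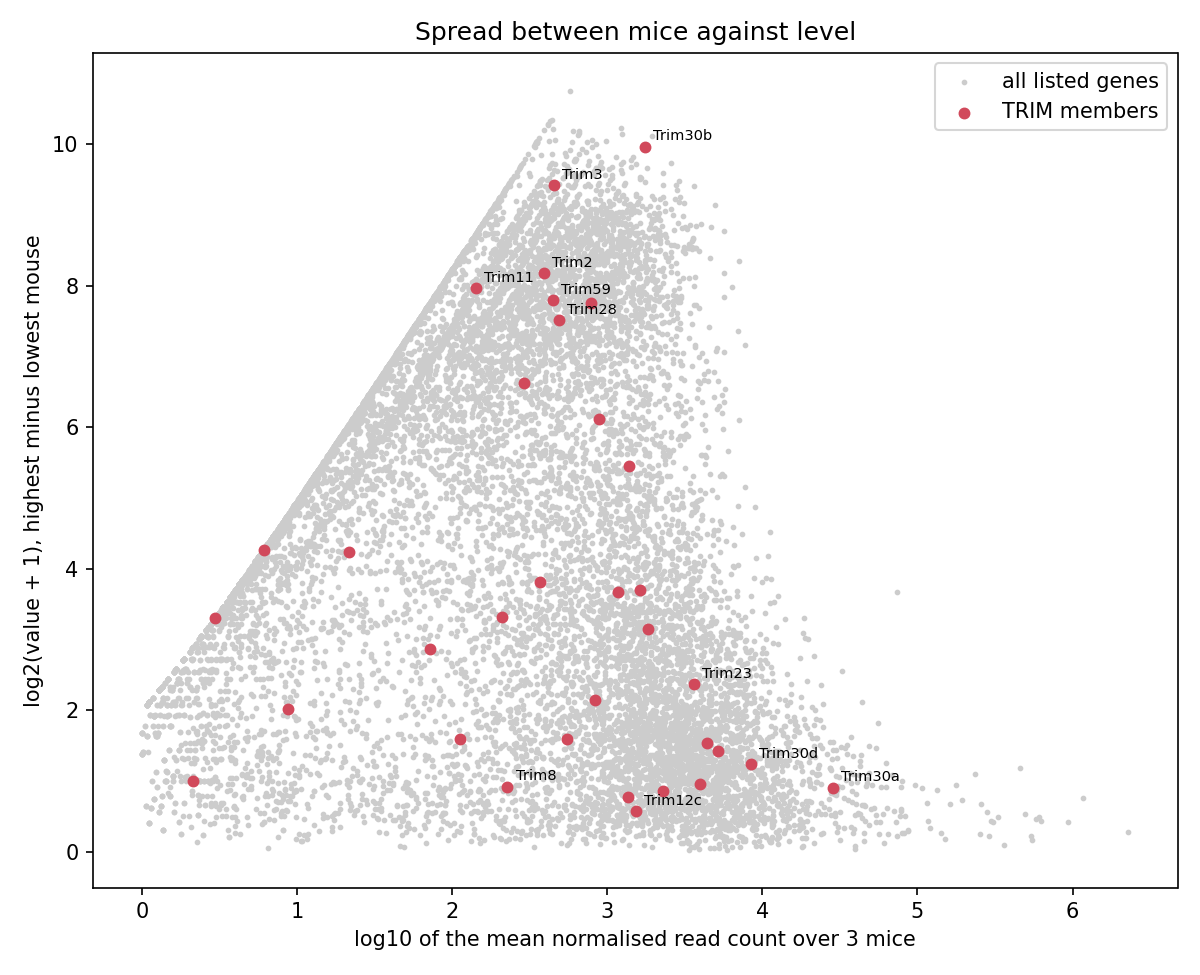
Difference between the highest and the lowest mouse on the log2(value + 1) scale, against the log10 mean of normalised reads, for the listed genes with a mean of at least 1 (grey) and the TRIM members (red). Trim30a and Trim30d combine a high level with a small range, and Trim30b, Trim3 and Trim2 have wide ranges at a mean above 100.

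The animal with the highest value also varied. Of the 34 members above 0 in any library, 13 were highest in mouse 1, 7 in mouse 2 and 14 in mouse 3, against 33.3%, 35.5% and 31.2% of all genes. The 7 that were highest in mouse 2 were Trim59, Trim32, Trim8, Trim35, Trim11, Trim63 and Trim39. Mouse 2 was also the library with the largest sum of kidney tubule markers, given above, and the part of those cells in these 7 values was not tested. In the order of mean levels per kb, 2 of the 35 pairs of neighbours had ranges that did not overlap, Trim30a over Trim30d and Trim37 over Trim6, the latter at 0. Trim37, at 1.11 normalised reads in mouse 2, was under the floor of 1.66 there, so Trim37 and Trim6 cannot be ranked. Trim30d over Trim5, Trim21 over Trim47 and Trim13 over Trim63 had overlapping ranges, with the first gene higher within each of the 3 libraries. In mouse 1 Trim13 was at 0.806, a single read, so its order over Trim63 is not resolved there. The other neighbours had overlapping ranges and an order that was not the same in every mouse, apart from Trim6 and Trim67, both at 0.

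Genes that work with TRIM proteins were read from lists in the same fit per kb, where 24.7% of all genes were above and 21.7% below the median gene. The 2 genes named from each list are those with the highest mean normalised reads, not divided by length, so their order can differ from that per kb. Of 16 tested genes of RIG-I and MDA5 signalling, 4 were above and 1 below. By mean reads the first were Ifih1 (MDA5), at 1293, 4714 and 9005 normalised reads, and Tab2, at 11780.1, 996 and 1837. Tab2 and Tab3 encode the targets of Trim30a, and Tab3, at 0, 234 and 0, was the lower one. Of the 9 listed E2 enzymes, which hand ubiquitin to RING fingers, 5 were above and 1 below. By mean reads the first were Ube2d3, at 24244, 25717 and 21624, and Ube2w, an E2 that starts chains on Trim21 itself, at 10597, 10591 and 14409. Per kb Ube2w lay further above the median gene (log2 difference 6.10) than Ube2d3 (4.81). In the list for the antibody route of Trim21 4 of 6 genes were above, with Ube2w and the proteasome deubiquitinase gene Psmd14 (1797, 2044 and 5344) first by mean reads. That list shares Ube2w, Ube2n and Ube2v2 with the E2 enzymes, and Ube2w and Ube2n were above, so the counts of these lists overlap.

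Of the 7 heterochromatin partners of Trim28, 2 were above the median gene, Morc3 and Cbx1, and none below. The 2 highest by mean were Morc3, at 6756, 6489 and 11130 normalised reads, and Atf7ip, at 1729, 4176 and 2246, which was not called. Of the 5 Smad partners of Trim33, 2 were above, the repressors Skil (13731, 9192 and 14926) and Ski (2843, 1591 and 1205). Of the 11 interferon regulators, 6 were above and none below, with Ifnar2 at 7011, 8791 and 11316 and Irf1 at 15142, 4897 and 2767. Of the 2 genes of cytosolic DNA sensing, 1 was above, Mb21d1 (cGAS), at 1566, 905 and 1367, and Tmem173 (STING) was at 237, 2600 and 315. Of the TRIM proteins whose genes have other symbols, 3 were tested and 1 was below the median gene, Mid1, between 1.66 and 3.23. Pml, at 1.61, 124 and 84.6, and Mid2, at 3.23, 882 and 192, were not called, and Mefv was at 0 in every mouse.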

How the data were processed

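HTSeq 0.5.4, DESeq 1.18.0 and mm9 are named in the submitters' processing notes. The authors deposited a normalised signal per gene to which 1 had been added, and this 1 was subtracted. After that, 100% of values are whole multiples of 1 step per library (tolerance 0.05 of a step). The aligner, gene models and row filter are not stated in the labels or notes. The labels' protocols describe enzymatic digestion, cell sorting and full-length cDNA amplification from low input with SMART-seq V4. Mice are separate animals per the labels.

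Exon lengths (union of exons) came from GENCODE M21 by gene identifier, for 99.6% of genes. It belongs to another build than mm9, so no coordinates of the deposited values are given. Promoter windows are RefSeq, GRCm38.p6. Per library, log2(value per kb + 1) minus the median gene or a reference member was tested against 0 in limma 3.58.1 (R 4.3.3, intercept only, intensity trend), two-sided, with Benjamini-Hochberg adjustment over all genes. The pseudocount of 1 understates differences of low genes. In the fit against the median gene the variance came almost wholly from the trend, so errors depend on level. The small p-values of that fit therefore do not measure the spread between these mice. Without the trend 10 members were called above, with adjusted p from 0.0127 for Trim30a to 0.0491 for Trim34a (limma). Trim47 was not called (adjusted p = 0.116, limma). With 3 mice an exact sign-flip test cannot go below p = 0.25. The fit was also run on simulated data with known shifts, with noise drawn from the trend of variance with level in these data. That run cannot show whether the p-values hold for genes that depart from the trend. Python 3.11.15, numpy 2.4.6, pandas 2.3.3 and matplotlib 3.10.9 did the rest.

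Values in every mouse are given by rule for the 12 highest members, the reference pairs and the 5 widest members. They are also given outside that rule for some other members, among them Trim41, Trim47, Trim44 and Trim8. The family, classes and lists were chosen with earlier results of these data known.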

Additional observations from a re-analysis of the deposited data

How the results depend on the processing

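Members at 10 normalised reads or more in every mouse numbered 21, and 22 to 26 when a mouse was left out. Members called above the median gene numbered 11, and 7 to 12 when a mouse was left out. Members called below numbered 4, and 3 to 5 when a mouse was left out, and 0 when only genes with a mean of 10 or more were fitted, since that filter removes the 4. All 6 cluster members had lower values than Trim30a under each alternative run, and the 1 call lost was that of Trim30d without the trend, at the same log2 difference of -1.68. Trim47 lost its call above the median gene under 6 alternatives, with log2 differences of 1.26 to 2.96 against 2.96. Trim34a also lost it with the median taken over genes above 0 in every library (1.85 against 3.55, adjusted p = 0.0908, limma). Trim7 lost its call below without division by exon length, at a similar difference (-3.85 against -4.08, adjusted p = 0.0926, limma). Of the members set against Trim25, 1 was called, but 0 with a pseudocount of 0.1, 4 with a pseudocount of 10, 5 without division by exon length, 6 with all rows, 3 without the trend, and 0 to 0 when a mouse was left out. The log2 difference of Trim23 from Trim25, -0.49, ran from -1.19 to 0.19 when a mouse was left out, and was 0.19 without mouse 1. Against Trim24, 0 to 1 members were called above when a mouse was left out. The causes of these changes were not tested. Genes under the floor of 3 reads cannot be ranked at this depth. No paired analysis was possible because the study has a single group.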
